A study of Mus musculus with 12 samples.

Results

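The m6A immunoprecipitation (IP) of control islets was set against the sequenced input of the same islets, at all 1233 peaks of the authors' deposited table of differential peaks. Of the 12 libraries in the series, 6 were used, as 3 IP and 3 input libraries of Mettl3 flox/flox mice. These were C57BL/6 mice on normal chow, aged 8 weeks, and the RNA of 9 of them went into 3 pools of pancreatic islets. The other 6 libraries came from beta-Mettl3-KO mice that carry the same floxed alleles and RIP-Cre. Their counts entered only an alternative fit of all 12 libraries. Whether they entered the authors' deposited fold enrichment, used below, is not stated in the file headers. These 6 libraries did help decide which peaks are listed and in which direction, since the table holds peaks that differ between the genotypes. All enrichment values therefore describe peaks picked by a peak caller and then by a genotype test on these same libraries, not the m6A peaks of islets at large.

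N6-methyladenosine (m6A) is the most common internal modification of mRNA. METTL3 is the catalytic subunit of the nuclear complex that writes it, at the adenosine of the motif DRACH. Reader proteins of the YTH family bind the mark and alter the splicing, translation and decay of the RNA, and marks are dense in long internal exons and near stop codons. In the MeRIP assay used here, RNA was broken into fragments of about 100 nt and pulled down with an antibody, so a peak locates methylation to a stretch of RNA, not to a base. Enrichment is here the share of a library's reads that fall in a peak in the IP, divided by the same share in the input of the same pool number. A value of 1 means no enrichment.

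The sequences below are the DRACH sites that lie nearest to the midpoints of peaks, in the transcript's direction, with coordinates on GRCm38 and the motif in capitals. The first set comes from 7 of the 8 strongest peaks, taking 1 peak per gene, the one of highest mean input. They were ranked by their lowest pool, among peaks with at least 30 input reads in each pool. They show what stood near the centre of strong signal. A site is shown where the peak could be read as 1 run of its transcript. These peaks are 589 to 2002 nt long and hold 19 to 52 DRACH motifs, so the site shown is 1 of many.

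Ripk4 (coding sequence, chr16:97743536-97743560, minus strand): gctctgatgtTAACAtctgcagcct
Thap11 (3′UTR, chr8:105856455-105856479, plus strand): cagaatctggTGACAccagcagtta
Dyrk3 (coding sequence, chr1:131129133-131129157, minus strand): gccaccgcagAAACTtctggagcaa
Terf2ip (coding sequence, chr8:112018122-112018146, plus strand): gcagacaagaTGACTtagatttgca
Scaf8 (coding sequence, chr17:3197795-3197819, plus strand): gtggtccttgGAACAgaggatttgg
Arxes2 (3′UTR, chrX:135994527-135994551, plus strand): ggacatctgtGGACTcaagaaatcg
0610040J01Rik (coding sequence, chr5:63898404-63898428, plus strand): tgggacatggAGACTgcagagcccc

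Genes that islets are known for, and the abundant nuclear RNA Malat1, gave the next set. Of these 6 sites, 3 held the core GGAC and 3 did not. The Mafa site lay 54 nt from the midpoint, and the central 100 nt of that peak held no DRACH.

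Malat1 (noncoding, chr19:5801549-5801573, minus strand): aaagctactaGGACTgaagtaaaaa
Irs2 (3′UTR, chr8:10985258-10985282, minus strand): agggacagtaGGACTgatctgctga
Mafa (3′UTR, chr15:75746823-75746847, minus strand): tgtgagtgccGGACCctgggcctcg
Hspa5 (coding sequence, chr2:34776002-34776026, plus strand): caaaaagaagGAACTagaagaaatt
Pcsk1 (coding sequence, chr13:75132198-75132222, plus strand): aaggctctgaAGACAgtctgtacag
Syt13 (3′UTR, chr2:92953762-92953786, plus strand): ctatacccaaAGACAgatgcagacg

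The last set comes from 4 of the 6 weakest peaks that are a single unbroken block in the genome. They were ranked by their highest pool, among peaks with at least 30 input reads in each pool. Their mean enrichments were 1.16 to 1.72. Ranked by the mean the set would differ, as the Pax6 peak had 1.44. Rpl4 still passed the test of IP against input described below (edgeR adjusted p = 0.037). The 4 peaks hold 2 to 7 DRACH motifs along 181 to 271 nt. D17Wsu92e and Rps18, the other 2 of the 6, gave no site under the rule above. The central 100 nt of the Rps18 peak held 3 DRACH motifs, so a site not shown need not mean a motif absent. The set thus says nothing of how often weak peaks have one. These peaks were chosen after their values were seen.

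Col4a2 (3′UTR, chr8:11448581-11448605, plus strand): tagtgttttcAAACTaccaaagcaa
Castor2 (3′UTR, chr5:134142761-134142785, plus strand): tcctgtcacaGGACAtccctcaccc
Itm2c (3′UTR, chr1:85907991-85908015, plus strand): tgaggctcacAAACAgcccccacac
Rpl4 (coding sequence, chr9:64178384-64178408, plus strand): ggttgccaagAAACCagcagagaag

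The deposited totals were 18400670, 22257803 and 20400149 reads in the IP libraries of control pools 1 to 3, and 18814409, 19404774 and 16832779 reads in their inputs. The listed peaks held 9.15%, 13.5% and 14.2% of the IP reads, against 1.81%, 1.82% and 1.75% of the input reads. The lowest IP share was above the highest input share, but a 2-sided exact permutation test of 3 against 3 libraries cannot go below p = 0.10, which is what it gave. Levels are given as RPM, the reads of a peak scaled to the deposited total reads of the library. The median count per peak was 563, 1017 and 1019 in the IP libraries and 119, 115 and 103 in the inputs, and no count was 0. Of 13 islet hormone and identity markers, only Nkx6-1, Mafa and Ucn3 had a listed peak, and Ins1, Ins2, Iapp and Gcg had none. The tissue label thus could not be checked at the hormone genes. None of 24 acinar marker genes was listed.

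Nearly every listed peak carried more reads in the IP than in the input. IP was higher at 1191 peaks (96.6%) and lower at 5 (0.406%) in edgeR's quasi-likelihood test with Benjamini-Hochberg adjustment over 1233 peaks and a threshold of 0.05. The other 37 peaks did not pass. The list was made from these libraries, so these counts are descriptions of it. The median log2 ratio of IP to input was 2.90, with 10th and 90th percentiles of 1.48 and 4.10 and a median standard error of 0.384. A test against a minimum fold of 2 (edgeR's glmTreat) called 1117 peaks (90.6%) higher and 1 peak (0.0811%) lower.

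By pool, the median enrichment was 5.23, 8.09 and 9.27, a mean of 7.53 ± 2.08 (SD, n = 3 pools). Enrichment was above 1 in all 3 pools at 1199 peaks (97.2%), above 2 in all 3 at 1097 (89.0%) and above 10 in all 3 at 156 (12.7%). Only 10 peaks were above 20 in every pool. Pool 1 was the weakest of the 3, pool 3 being above it at 86.4% of the peaks and pool 2 at 76.0%. The gap to pool 1 widened with the strength of the peak. In the quartile of peaks weakest in pool 3, the median ratio of pool 2 to pool 1 was 1.27, and in the strongest quartile it was 1.83. Log2 enrichment at the same peaks correlated between pools with Pearson's r of 0.678 (pools 1 and 2), 0.769 (1 and 3) and 0.792 (2 and 3) across 1233 peaks, which share their libraries and are not replicates.

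**Figure D1:**
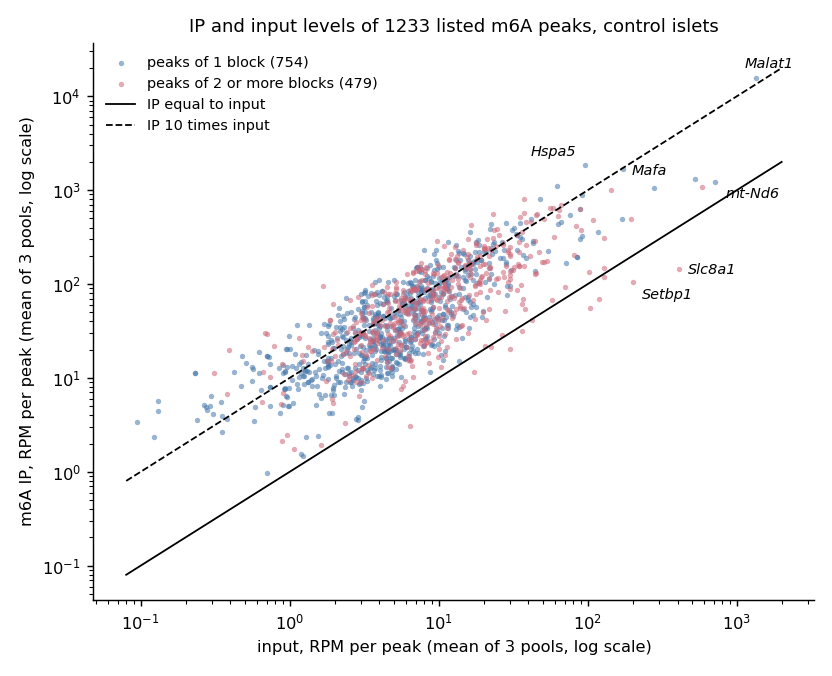
IP level (vertical) against input level (horizontal) of the 1233 peaks, each the mean of 3 control pools in RPM, on log scales, with peaks of 1 block in blue and peaks of 2 or more blocks in red. Most points lie between the solid line of equality and somewhat above the dashed line of 10 times input, Malat1 stands at the top right, and the points under the solid line are red.

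The counts could not be read alike at all peaks. A peak that crosses an exon junction is listed as 2 or more blocks, with a genomic span that includes the introns between them. There were 754 peaks of 1 block (61.2%) and 479 of 2 or more. Among peaks of 2 or more blocks, the enrichment from the counts was lower the more bases of the span lay outside the blocks, while the fold enrichment in the authors' deposited table was not. For peaks of 1 block the median enrichment from counts was 7.66 ± 2.19 (SD, n = 3 pools) and the authors' deposited table gave a median fold of 10.1. With 3001 to 10000 bases outside the blocks (112 peaks) the count value was 6.39 ± 1.91, and the authors' deposited table gave 16.8. Over 30000 bases (15 peaks) the count value was 1.52 ± 0.399, and the authors' deposited table gave 16.6. The median input level went with it, at 4.88 RPM in peaks of 1 block and 57.6 RPM in the peaks over 30000 bases. Whether the counts include reads from introns is not stated in the file headers and was not tested. Position and abundance results below are therefore given for the peaks of 1 block, unless all peaks are named, a choice made after seeing the data.

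Among the 754 peaks of 1 block, IP was higher at 741 (98.3%) and lower at 0, and 13 did not pass. All 5 peaks with lower IP, and all 7 (0.568%) with enrichment below 1 in all 3 pools, had 2 or more blocks.

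**Figure D2:**
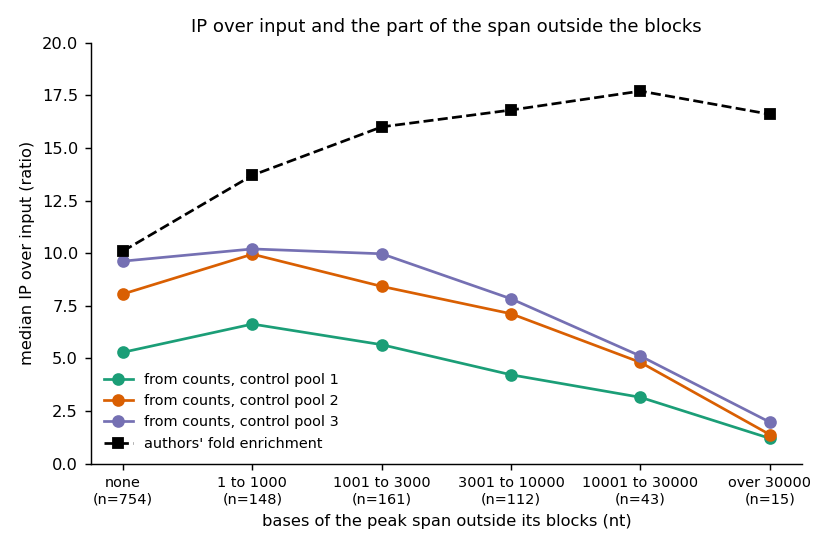
Median ratio of IP to input (vertical, linear) by the number of bases of the peak span outside its blocks (horizontal, nt, with the number of peaks), from the counts in each control pool and, dashed, as the fold enrichment of the authors' deposited table. The count values of the 3 pools end at 1.20, 1.38 and 1.97 in the last class, where the authors' value is 16.6.

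The 8 strongest peaks were chosen by their lowest pool, among peaks with at least 30 input reads in each pool. Only 1 peak per gene entered, the one of highest mean input. This left out a coding peak of Gtf3c4 (17.5, 25.2 and 32.1), whose lowest pool was above that of 0610040J01Rik (16.6). The 8 chosen peaks each had their midpoint in the last exon, as had 76.9% of all placed peaks. Ripk4, a protein kinase known from epidermal differentiation, had 94.9, 113.5 and 121.7 RPM in the IP against 3.99, 4.28 and 3.62 RPM in the input over 1378 nt (chr16:97742861-97744238). Every IP library was more than 20 times its input, with enrichments of 23.8, 26.5 and 33.6 and a log2 ratio of 4.79 ± 0.40 (SE; edgeR adjusted p = 2.3e-30). Dyrk3, a kinase that dissolves stress granules, had enrichments of 18.8, 47.1 and 31.1 from input counts of 53, 35 and 42 reads, so its pools differed in part on few input reads. The other 6 were Thap11, which encodes a zinc finger transcription factor, Scaf8, whose product binds RNA polymerase II, Terf2ip, a part of the telomere-capping shelterin complex, and Arxes2, Fam155a and 0610040J01Rik. Their mean enrichments ran between 19.4 and 27.4. The peaks of Terf2ip, Fam155a and 0610040J01Rik had 2 blocks.

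The 7 peaks below 1 in all pools had 3478 to 202215 bases outside their blocks, and 4 of them were among the 15 peaks with over 30000. Slc8a1, the plasma membrane sodium-calcium exchanger, had 152.7, 147.7 and 137.2 RPM in the IP against 430.4, 419.1 and 372.9 RPM in the input (log2 ratio -1.48 ± 0.32, SE; edgeR adjusted p = 4e-06). Its 989 nt of blocks lie in a span with 202215 further bases, and the authors' deposited table gives this peak a fold of 10.6. Setbp1 (184515 bases outside the blocks), Arhgef12 (60891), Abhd15 (18189) and Acbd3 (3478) were the other 4 peaks with lower IP, with mean enrichments of 0.518, 0.533, 0.588 and 0.553. Abhd15 lost its call without any 1 of the 3 input libraries (adjusted p of 0.056 to 0.089). Acbd3 lost it without IP pool 2 or 3 or input pool 2 (adjusted p of 0.11 to 0.27). Plcxd3, at 0.681, and Gnb1, at 0.688, did not pass (edgeR adjusted p of 0.11 and 0.13). Among peaks of 1 block, the lowest was Col4a2, a basement membrane collagen, with 14.5, 13.7 and 17.6 RPM in the IP against 14.2, 15.7 and 11 RPM in the input. Its pools lay on both sides of 1 and it did not pass (log2 ratio 0.16 ± 0.37, SE; edgeR adjusted p = 0.67).

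The peak with the most input reads was that of Malat1, a nuclear long noncoding RNA. Its peak of 1080 nt (chr19:5800994-5802073) had 13616, 17769 and 16169 RPM in the IP against 1479, 1274 and 1256 RPM in the input. The groups were far apart, with a log2 ratio of 3.57 ± 0.25 (SE; edgeR adjusted p = 4.9e-42). The next by input RPM of the whole peak were mt-Nd6, the noncoding Gm26917 and mt-Nd2, and per kb of peak all 3 were above this Malat1 peak. Gm26917 had 1518.6, 689.2 and 1053.1 RPM in the IP against 499.7, 641.9 and 609.6 RPM in the input, from a peak of 121 nt in 2 blocks. The mitochondrial peaks were weak as well. mt-Nd2 had 1053.3, 1424.4 and 1459.8 RPM in the IP and 531.8, 496.2 and 545.5 RPM in the input, a log2 ratio of 1.32 ± 0.29 (SE; edgeR adjusted p = 5.9e-06). mt-Nd6, the 1 protein gene on the other mitochondrial strand, had 1632.7, 1133.1 and 901.9 RPM against 728.2, 746.3 and 667.6 RPM, a log2 ratio of 0.78 ± 0.28 (SE; edgeR adjusted p = 0.0068), and lost its call without input pool 3 (adjusted p = 0.059). Their mean enrichments of 2.51 and 1.70 were among the lowest of peaks of 1 block, whose 10th percentile of enrichment averaged 2.79 over the pools. Whether the libraries keep strand is not given in the sources used here, so reads of these genes cannot be told from transcripts of the opposite strand.

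Gene lists for islet functions are described with 1 peak per gene, beside the median of all peaks (7.53 ± 2.08) and a background of 96.6% called higher. What share of all peaks lies above or below that median in every pool is not given here, so counts of members that do have no background. Peaks of any number of blocks entered. Those of Nkx6-1, Isl1, Syt13, Rims2, Ghr, Prlr, Rictor, Pdia3, Pdia4 and Arid1a, among others, had 2 blocks. Of 34 β-cell transcription factors, 11 had a listed peak, and 10 of these were higher in the IP. Their median enrichment was 5.22 ± 2.06 (SD, n = 3 pools), with 2 above and 6 below the all-peak median in every pool. In the 8 peaks of 1 block the median was 6.18 ± 2.32. The median input of the 11 genes was 21.2 RPM per kb of peak. Mafa, an activator of insulin transcription, had 1863.7, 848.9 and 2314.9 RPM in the IP against 192.6, 160.1 and 161.3 RPM in the input. All IP values were above all input values, but pool 2 had well under the IP level of the other two (log2 ratio 3.29 ± 0.31, SE; edgeR adjusted p = 7.7e-25). Nkx6-1, which maintains β-cell identity, had 418.0, 403.0 and 610.1 RPM in the IP against 110.5, 106.1 and 109.6 RPM in the input (log2 ratio 2.13 ± 0.32, SE; edgeR adjusted p = 8.1e-11). Isl1, a LIM homeodomain factor of endocrine cells, averaged an enrichment of 9.90 ± 4.58, and Glis3, a factor linked to neonatal diabetes, 15.4. Pax6, an endocrine lineage factor, was the member that did not pass. Its enrichments were 2.17, 1.46 and 0.692 from 41, 49 and 62 input reads.

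All 5 listed genes of the granule and of prohormone processing, out of 22, were higher in the IP, with a low median of 3.78 ± 0.422. Pcsk1, the prohormone convertase that starts the cleavage of proinsulin, stood above the rest with 178.4, 465.0 and 387.5 RPM in the IP against 29.7, 32.4 and 36.6 RPM in the input. Its IP values spread over more than a 2-fold range while its inputs were close together (log2 ratio 3.39 ± 0.35, SE; edgeR adjusted p = 3.8e-21). Slc30a8, the zinc transporter of the insulin granule, had 270.1, 414.1 and 402.2 RPM in the IP against 114.3, 116.9 and 122.9 RPM in the input (log2 ratio 1.62 ± 0.32, SE; edgeR adjusted p = 6.9e-07). Ucn3, a peptide of mature β-cells, averaged an enrichment of 3.61 ± 0.618. Their peaks were single blocks.

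For glucose sensing and exocytosis 8 of 34 genes were listed and all 8 were higher in the IP (median 7.55 ± 2.46). In the 3 peaks of 1 block the median was 5.42 ± 3.14. Syt13, a synaptotagmin family member, had 834.7, 1046.5 and 1147.8 RPM in the IP against 137.6, 153.8 and 136.7 RPM in the input (log2 ratio 2.82 ± 0.32, SE; edgeR adjusted p = 2.4e-18). Rims2, a scaffold of granule docking sites, had the highest enrichments of the list at 15.1, 46.7 and 27.7, and Atp2a2, the calcium pump of the endoplasmic reticulum, the lowest at 1.47, 2.58 and 2.91. Atp2a2 was the most abundant of them per length, at 338.3 RPM per kb of input, and still passed (log2 ratio 1.22 ± 0.33, SE; edgeR adjusted p = 0.00027).

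Receptors had the highest median of the lists of islet protein-coding genes when peaks of any number of blocks were taken. In peaks of 1 block alone, the median was 13.4 ± 5.07 for receptors (3 peaks) and 13.8 ± 2.53 for insulin signalling (2 peaks). Of 26 genes for receptors and cAMP signalling 6 were listed, 5 were higher in the IP, and the median was 12 ± 3.59. These were Ghr and Prlr, the receptors of growth hormone and prolactin, Gipr, the receptor of the incretin GIP, Chrm3, a muscarinic receptor, and Galr1, a galanin receptor, each above the all-peak median in every pool. Ghr had 493.1, 1044.1 and 881.8 RPM in the IP against 36.4, 35.3 and 40.5 RPM in the input (log2 ratio 4.43 ± 0.35, SE; edgeR adjusted p = 5.4e-34). Gnas, which encodes the stimulatory G protein subunit, was the exception. Its 4-block peak had 199.4, 92.5 and 115.6 RPM in the IP and 94.8, 114.0 and 96.8 RPM in the input, so the groups overlapped and it did not pass (log2 ratio 0.41 ± 0.33, SE; edgeR adjusted p = 0.21).

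All 5 listed insulin signalling genes, out of 18, were higher in the IP (median 7.83 ± 2.17). Irs2, the adaptor that carries the signal from the insulin receptor in β-cells, had enrichments of 16.4, 24.6 and 20.3 (log2 ratio 4.37 ± 0.40, SE; edgeR adjusted p = 8.3e-26), and Irs1, its relative, 5.47, 6.51 and 9.73. Rictor, the defining subunit of mTORC2, averaged 23.8. Foxo1, a transcription factor that insulin holds out of the nucleus, was lowest with 355.6, 535.8 and 597.6 RPM in the IP against 214.7, 204.1 and 170.6 RPM in the input (log2 ratio 1.34 ± 0.31, SE; edgeR adjusted p = 2.2e-05). Its span holds 76221 bases outside the blocks.

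Of 39 genes of the unfolded protein response and the endoplasmic reticulum chaperones, 10 were listed and 9 were higher in the IP. Their median was 4.21 ± 0.537, with 6 below the all-peak median in every pool. In the 4 peaks of 1 block the median was 3.44 ± 1.05. The median input of the 10 genes was 58.0 RPM per kb of peak. Hspa5 and Pdia4 were the 2 members above the all-peak median in every pool. Hspa5, the chaperone BiP, had 923.2, 2595.1 and 2103.7 RPM in the IP against 99.2, 94.5 and 94.9 RPM in the input. Its inputs were nearly equal and its IP level in pool 1 was the lowest of the 3 (log2 ratio 4.28 ± 0.32, SE; edgeR adjusted p = 9.4e-37). Pdia4, a disulfide isomerase, had enrichments of 8.06, 14.8 and 14.6. Pdia3, of the same family, averaged an enrichment of 4.85 ± 0.631 (log2 ratio 2.28 ± 0.34, SE; edgeR adjusted p = 5.6e-11). Atf6, a sensor of the response, did not pass, with enrichments of 1.20, 1.38 and 1.69 (edgeR adjusted p = 0.13) and 37018 bases outside its blocks. It passed without IP pool 1 (adjusted p = 0.0036).

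The m6A machinery itself was listed with 6 of 21 genes, all higher in the IP (median 8.28 ± 2.09). Among writer subunits, Cbll1 had enrichments of 9.0, 11.7 and 11.7 (log2 ratio 3.46 ± 0.38, SE; edgeR adjusted p = 4e-19), Wtap averaged 9.45 and Rbm15 7.67. Among readers, Ythdf1 had 6.26, 10.7 and 9.95 (log2 ratio 3.17 ± 0.37, SE; edgeR adjusted p = 6.7e-17) and Ythdc1 averaged 4.73. Of 52 chromatin regulators 13 were listed and all were higher (median 5.43 ± 0.942), among them Arid1a, a subunit of the BAF remodelling complex, at 12, 13.6 and 20.9 (log2 ratio 3.95 ± 0.35, SE; edgeR adjusted p = 7.6e-28). Of 17 long noncoding RNAs, Malat1, Neat1 and Kcnq1ot1 were listed, each higher in the IP, with a median of 11.1 ± 1.84. That median rests on the most abundant peak of each, and over all 8 of their peaks it was 5.28, below the all-peak median.

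Markers of other cells were also looked up. Cldn4, a tight junction claudin, was the 1 ductal gene of 11, with a mean enrichment of 11 ± 4.91. Of 25 endothelial, stromal and immune genes 7 were listed and 6 were higher, with a median of 3.48 ± 1.08. Eng, a co-receptor of endothelial cells, had enrichments of 6.24, 4.66 and 7.68 (log2 ratio 2.63 ± 0.37, SE; edgeR adjusted p = 2.7e-12). Podxl, a sialomucin of endothelium, had 3.26, 1.40 and 2.11 (log2 ratio 1.11 ± 0.35, SE; edgeR adjusted p = 0.0019). In such bulk RNA, fewer cells of a type and less RNA per cell cannot be told apart in the input level. No list was tested against another.

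**Figure D3:**
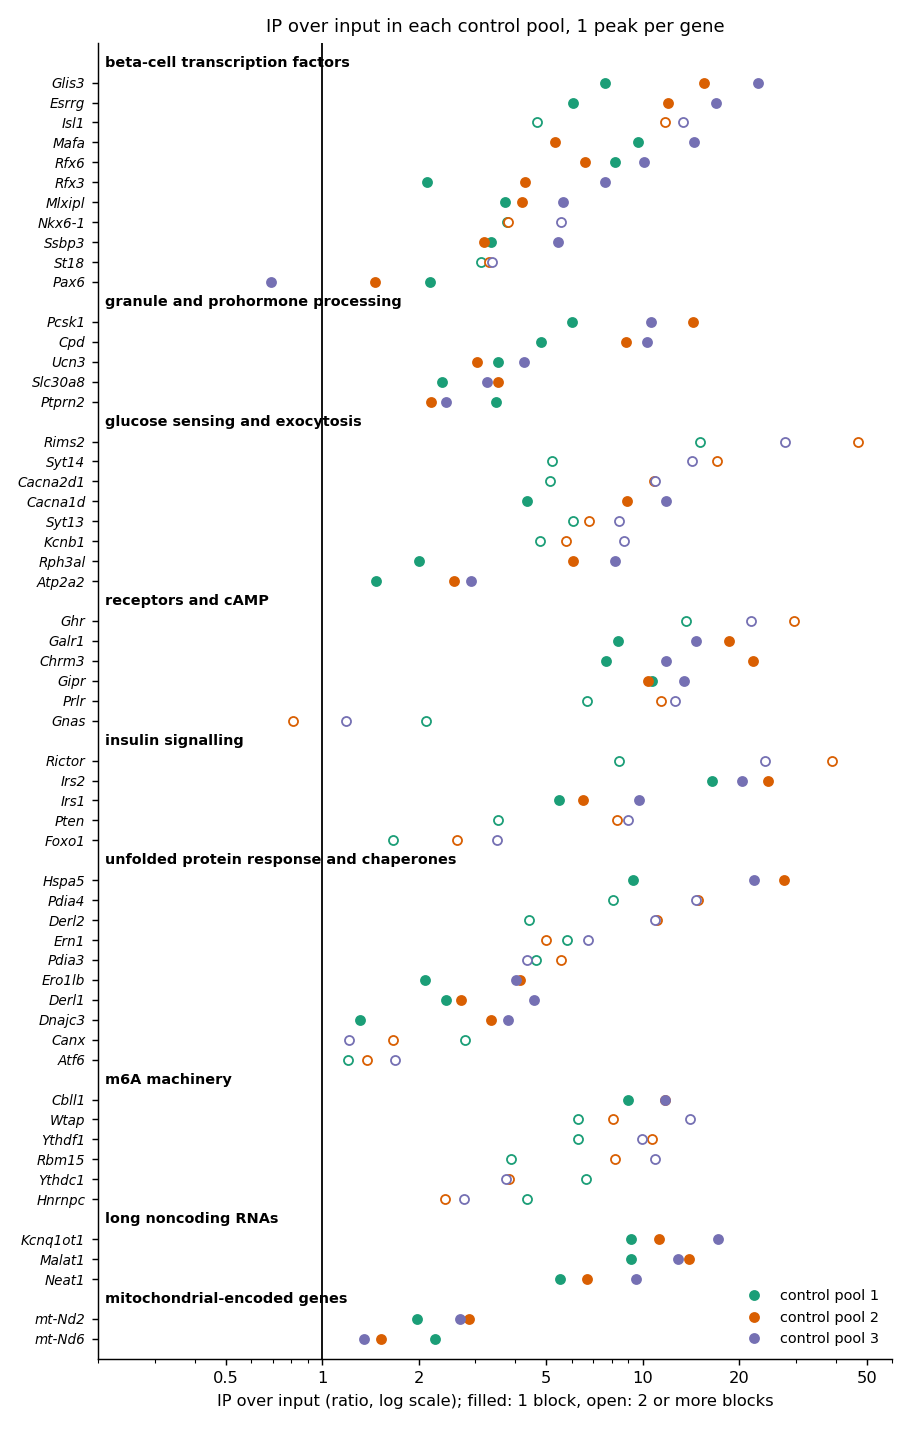
Ratio of IP to input (horizontal, log scale) at 1 peak per listed gene (rows, grouped by gene list), with 1 point per control pool, filled for peaks of 1 block and open for 2 or more. Receptors lie mostly to the right of 5, Gnas and Pax6 lie around the line at 1, and pool 1 is often the leftmost point.

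The length of the peak went with enrichment more closely than its place in the transcript. Across the 754 peaks of 1 block, Spearman's rho between enrichment and peak length was 0.570, 0.512 and 0.557 in the 3 pools. The shortest quartile (108 to 390 nt) had a median enrichment of 3.76 ± 0.835 and the longest (1007 to 4881 nt) had 12 ± 3.12 (SD, n = 3 pools). The ranges of the 3 pools, 2.80 to 4.28 and 8.54 to 14.6, did not overlap. A longer peak also draws on more reads, and the caller set its ends from the same libraries, so length is not independent of the signal. With 3 pools the 2-sided exact sign-flip permutation test of any such contrast cannot go below p = 0.25, and none is called.

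By place, the spliced midpoint of a 1-block peak lay in a 3′UTR for 405 peaks, in coding sequence for 272, in a noncoding transcript for 68 and in a 5′UTR for 7. Coding peaks had a median enrichment of 9.03 ± 2.23, 3′UTR peaks 6.69 ± 1.82, noncoding peaks 7.73 ± 2.30 and 5′UTR peaks 3.86 ± 0.429. Coding peaks were above 3′UTR peaks in all 3 pools. They were also longer, with a median of 870 nt against 537 nt. Within tertiles of peak length the coding and 3′UTR medians were 4.06 and 4.11 in the shortest, 7.28 and 7.44 in the middle and 12 and 10.8 in the longest tertile. The sign of the difference varied between pools in the shortest and middle tertiles, and coding peaks were higher in all 3 pools in the longest tertile. In that tertile coding peaks were still the longer, with a median of 1376 nt against 1101 nt.

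Exon length gave a like picture. Peaks of 1 block whose midpoint lay in exons of 1 to 400 nt had a median enrichment of 3.26 ± 0.421 (13 peaks), those in exons of 401 to 1000 nt 5.94 ± 1.61 (113), of 1001 to 3000 nt 7.82 ± 2.10 (362) and over 3000 nt 8.21 ± 2.34 (264). The first class is small. Exons over 1000 nt stood above shorter ones, at 8.07 ± 2.25 against 5.58 ± 1.55, but within the shortest tertile of peak length the medians were 4.17 and 3.94 and within the middle tertile 7.79 and 7.61, with pools of both signs. A midpoint 0 to 200 nt from the nearest exon junction went with 3.93 ± 0.685 (44 peaks) and 401 to 1000 nt with 9.01 ± 2.73 (234). In the shortest tertile of peak length, peaks over 400 nt from a junction and nearer ones had 4.18 and 4.16. In the middle tertile they had 7.35 and 8.02, the nearer ones being higher in all 3 pools. A short exon cannot hold a long peak of 1 block, so these measures are bound together.

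The authors' deposited table has the same order by exon length over all 1233 peaks, multi-block ones included. Its median fold was 3.10 in exons up to 200 nt (22 peaks), 4.61 at 201 to 400 nt (31), 9.56 at 401 to 1000 nt (235), 13.8 at 1001 to 3000 nt (551) and 15.3 above (391). The count values over the same peaks were 1.80 ± 0.333, 3.11 ± 0.0816, 5.87 ± 1.54, 7.96 ± 2.20 and 8.80 ± 2.53.

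Over all 1127 peaks in coding transcripts, 572 (50.8%) had their midpoint within 400 nt of the last coding base, and 946 peaks (76.9% of those placed) lay in last exons. The 946 include the 76 peaks of single-exon transcripts, whose only exon counts as the last. How much of the transcripts' own sequence lies in these zones was not computed, so the shares do not show clustering. Enrichment did not peak at the last coding base. Peaks of 1 block from 100 nt before to 100 nt after it had 6.25 ± 1.53 (103 peaks), those 100 to 400 nt before it 10.8 ± 3.01 (54) and those 400 to 1000 nt before it 11.3 ± 2.45 (67). Those over 1000 nt before it had 7.19 ± 2.22 (112), below both of these classes in all 3 pools. Past it the medians were 6.62 ± 1.60 (100 to 400 nt, 154 peaks), 8.01 ± 2.54 (400 to 1000 nt, 82 peaks) and 6.49 ± 1.97 (over 1000 nt, 112 peaks). The 2 classes from 100 to 1000 nt before it also had longer peaks, with median lengths of 794 and 1376 nt against 420 nt around the last coding base.

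**Figure D4:**
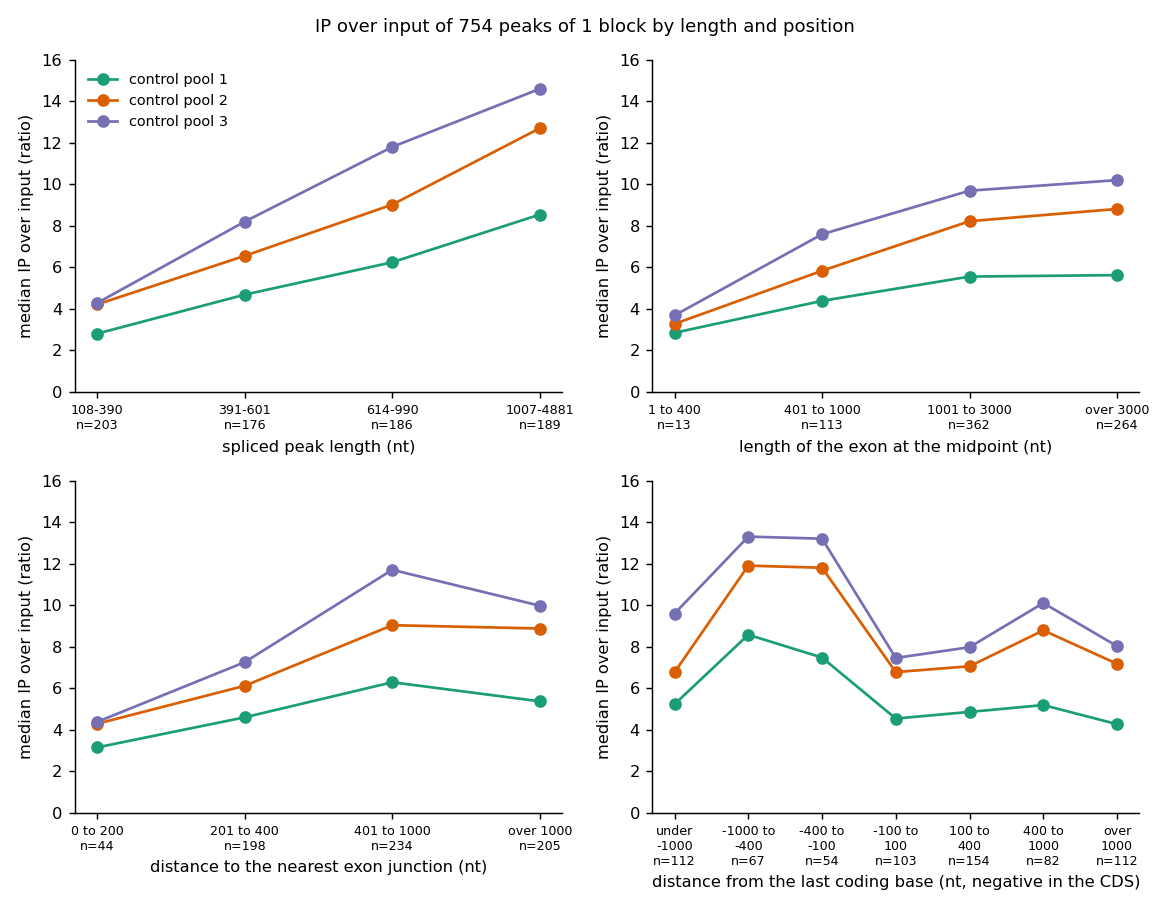
Median ratio of IP to input (vertical, linear) in each control pool for the 754 peaks of 1 block, by spliced peak length, exon length, distance to the nearest exon junction and distance from the last coding base (horizontal, nt, with the number of peaks). The rise is steepest along peak length, and the medians around the last coding base lie below those of the 2 classes before it in all 3 pools.

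The authors' own position classes, taken at the genomic centre of the peak, placed 369 peaks in introns. All 369 lay, at their spliced midpoint, in an exon of some transcript of the gene, which may be noncoding. Of them 356 had 2 or more blocks, and for these the class need not place the bases of the peak in an intron. The 2 last-intron and 11 other-intron peaks of 1 block have no such gap. Among these, the Pax6 peak was placed in an exon of a noncoding transcript. Of 28 peaks classed as 5′UTR by the authors, 19 were coding and 5 were 5′UTR at the spliced midpoint. The class accordingly had a median of 9.58 ± 2.18 by the authors' label but 3.39 ± 0.416 (19 peaks) by spliced midpoint.

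Enrichment was lower where the input per kb of peak was higher. Abundance was taken as input RPM per kb of peak in the other 2 pools, so that the input count in the ratio is not the one on the axis. Spearman's rho across 754 peaks of 1 block was -0.506, -0.477 and -0.555 in the 3 pools. With input RPM of the whole peak, not divided by its length, it was -0.125, -0.134 and -0.183, an alternative added after seeing the data. In the lowest quartile of abundance the median enrichment was 8.06, 12.4 and 16.1 in pools 1 to 3, and in the highest quartile it was 3.38, 4.49 and 4.67. The lower edge moved too. The 10th percentile of enrichment was 3.95, 4.9 and 7.39 in the lowest quartile and 1.76, 2.37 and 2.32 in the highest, so weakly enriched peaks were scarce among low RNAs in this list. What the list leaves out was not analysed here, and how far the caller's thresholds set this edge was not tested. Short peaks were more common in abundant RNA, with median lengths of 837 nt in the lowest quartile of mean input per kb and 391 nt in the highest. Within each tertile of peak length the relation had the same sign, with rho of -0.497 to -0.561 in the shortest, -0.285 to -0.387 in the middle and -0.268 to -0.369 in the longest tertile. The main Malat1 peak ran against it, at an input of 1237 RPM per kb and a mean enrichment of 12 ± 2.49, while the other listed Malat1 peaks of 1 block averaged 2.33 to 2.92.

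At the lowest input levels the values were coarse. Vrk1, a nuclear kinase, had 3, 1 and 3 input reads and enrichments of 21.1, 107.2 and 45.4, and Gm49373 had 1, 9 and 3 input reads and enrichments of 144.2, 28.6 and 70.7. Their spread between pools is that of single reads.

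**Figure D5:**
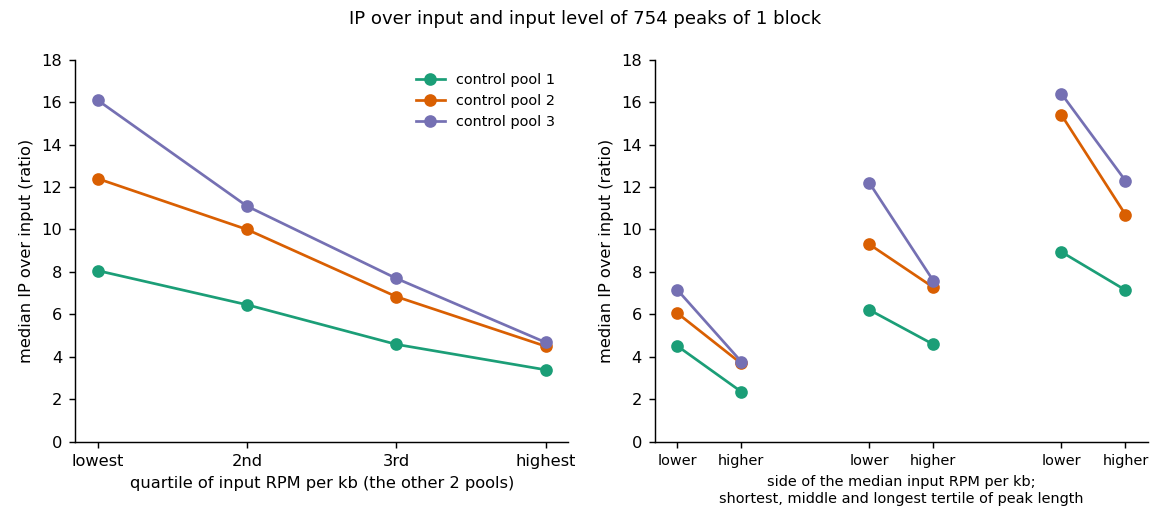
Median ratio of IP to input (vertical, linear) of the 754 peaks of 1 block in each control pool, by quartile of input RPM per kb of the other 2 pools (left) and on either side of its median within each tertile of peak length (right). All lines fall to the right, and the longest peaks stay above the shortest at either input level.

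The letters at the peak centres differed from the rest of the same transcripts. DRACH stands for the 18 words with A, G or T, then A or G, then AC, then A, C or T, read on the transcript strand only. At least 1 lay in the central 100 nt of 93.5% of 1228 peaks, against 85.8% of 39918 stretches of 100 nt of the same transcripts outside the listed peaks. The core GGAC was in 43.7% against 28.7%. In 3′UTRs this was 44.2% against 20.2%, and in coding sequence 42.7% against 36.3%. Of the 18 words, GGACT had the highest ratio of shares at 2.03 (18.6% against 9.16%), and TAACA the lowest at 0.819 (6.11% against 7.45%). The mean GC content of peak centres and other stretches was 48.1% and 47.0%. These shares are descriptions, since peaks overlap in genes and the list was selected.

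Within the central 100 nt, the presence of a motif went little with the degree of enrichment. Peaks with a central GGAC had a median of 7.70 ± 2.16 and those without 7.45 ± 2.01. The log2 difference was 0.06, -0.02 and 0.10 in the 3 pools, smaller than the spread between pools. Peaks with no central DRACH had 7.08 ± 1.76 (80 peaks), those with 3 had 7.71 ± 2.18 (306) and those with 5 or more had 9.27 ± 2.64 (111). The class of 5 or more was above the other peaks in all 3 pools, by log2 differences of 0.27, 0.39 and 0.30. Its median peak length was 511 nt, against 793 nt with no DRACH. With GGAC the length was 570 nt, and without it 711 nt. How length bears on these contrasts was not tested. In a window of 200 nt, the 1218 peaks with a DRACH had 7.60 ± 2.12 and the 10 without had 3.55 ± 0.305, a log2 difference of 1.06 that rests on those 10 peaks.

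Peaks of the same RNA often differed in enrichment. Of 107 genes with 2 or more listed peaks, 32 had pairs of non-overlapping 1-block peaks with enough input reads. There were 52 such pairs, some of which share a peak. Listed peaks of Malat1 and of Chrm3 that overlap each other entered separate pairs. In 37 of these pairs the same peak was the higher in all 3 pools, and in 20 it was also at least 2-fold higher in the mean. Mafa had its main peak at 9.68, 5.30 and 14.4 and a second in the 3′UTR (chr15:75745907-75746085) at 2.36, 1.25 and 2.26. Malat1 had its main peak at 9.21, 13.9 and 12.9 and another (chr19:5802552-5802671) at 1.88, 3.28 and 1.83. Rragc, which encodes a GTPase of the mTORC1 pathway, had 9.72, 23.1 and 13.7 in one 3′UTR peak and 1.72, 3.89 and 3.30 in another. The lower peak of each of these 3 genes was below the higher one in every pool. It was also the shorter one in each gene, and how length bears on these differences was not tested. Which peak of a pair counts as the higher was set by the mean of the same 3 pools. Larger ratios occurred where the lower peak had a wide span. Casr, the calcium-sensing receptor, had 11, 27.8 and 22.6 in its 3′UTR peak and 1.02, 1.13 and 1.38 in a 5′UTR peak with 43648 bases outside its blocks, and the 5′UTR peak did not pass (log2 ratio 0.22 ± 0.34, SE; edgeR adjusted p = 0.52).

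Among peaks with at least 30 input reads in each pool, taking 1 peak per gene, 4 were named for the largest ratios between pools. 1700123O20Rik had enrichments of 8.96, 57.5 and 20.2. Mmgt2 had enrichments of 4.29, 8.34 and 29.0 with inputs of 8.50, 6.75 and 2.32 RPM, and Naa30, the catalytic subunit of an N-terminal acetyltransferase, had 1.74, 10.6 and 2.32 with inputs of 4.15, 1.75 and 5.35 RPM. In both the pool of highest enrichment had the lowest input and also the highest IP level, at 36.5, 56.3 and 67.2 RPM in the IP for Mmgt2 and 7.23, 18.6 and 12.4 RPM in the IP for Naa30. Hnrnpab, an RNA-binding protein, had enrichments of 3.24, 0.438 and 0.748, from 25.7, 4.81 and 9.07 RPM in the IP against 7.92, 11 and 12.1 RPM in the input.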

How the data were processed

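The authors deposited 1 table of peaks with read counts, total reads and RPM values per library, the last being counts scaled to total reads per the file headers. Tools in the submitters' processing notes are HOMER 4.9.1, BWA 0.7.12 and fastp 0.19.11, with the build GRCm38.p6 and no roles, and no source used here gives the peak caller. The authors' deposited fold enrichment of each peak is a ratio of IP over input, from libraries the headers do not name, and their 6 ratio columns divide libraries of the same number. Their deposited log2 difference between genotypes is negative where lower in knockouts, and their FDR score of that difference is at most 0.00955. Both were read to describe how the 1145 lower and 88 higher peaks were listed. The sign of the difference was also used to group peaks and to select those listed as lower.

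A quasi-likelihood model of IP and input was fitted to the counts of the 6 control libraries in edgeR 4.0.16 under R 4.3.3, with library sizes set to the deposited totals, no filter on low counts and no term for the pool. The common dispersion was 0.0861. The code was tested on simulated data. Enrichment per pool divided IP by input RPM of the same number in the library titles. Peaks were placed in GENCODE M21 transcripts of the same build (1230 of 1233) at their spliced midpoint, and all sequences printed come from those transcripts. Motifs were counted in 100 nt at that midpoint, and in 39918 stretches outside the peaks. Where a gene had several peaks, the one of highest mean input was used, which can favour wide spans. Symbols matched for 1105 genes.

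Named peaks followed a rule: the 8 strongest and 6 weakest with at least 30 input reads in each pool, the highest and lowest inputs, up to 4 genes per list by input, and the largest differences between pools and within genes. For all of these but the differences within genes, only 1 peak per gene entered. Genes outside it were named for their list and after their values were seen. The members, lists and tests were chosen with earlier results of these data known. Beside edgeR's total-read scaling, TMM factors, DESeq2 1.42.0, a filter on low counts, all 12 libraries, a pool term and leaving out each library were tried, and peaks of 1 block were set apart after seeing the data. The labels call the pools independent biological replicates. Precision is limited by 3 pools and, at low input, by counting error.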

Additional observations from a re-analysis of the deposited data

How the results depend on the processing

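IP was higher at 1191 peaks and lower at 5 with total reads as library sizes. Leaving out 1 of the 6 libraries gave 1175 to 1187 higher and 3 to 8 lower, the low filter 1191 and 5, all 12 libraries 1195 and 5, halved counts 1191 and 5, and DESeq2 with total reads 1193 and 6. With the replicate block the counts were 1183 and 5. No pairing of IP with input by pool number was seen, the correlations of same-numbered deviations being -0.01, -0.06 and 0.06. Values near 0 cannot show that the libraries are unpaired, since counting error in the inputs also enters the deviations. The pairing is taken from the library titles, and the block is no check of it. A minimum fold of 2 left 1 lower.

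Scaling on the listed peaks themselves sets their middle to 1, and moved the median enrichment of 7.53 to 1.0. TMM factors then gave 317 higher and 358 lower, and DESeq2's own size factors 324 and 376. Positive log2 ratios under about 2.9, the median, thereby turn negative, and only the order of peaks is then read. Of 41 named peaks that were followed through the settings, 15 did so. Other peaks named in the text have such ratios too but were not among the 41. Examples are Ucn3 (1.84), Pax6 (0.39), Gm26917 (0.90) and Ythdc1 (2.33). Under TMM factors the 15 were mt-Nd6 at -1.97, mt-Nd2 -1.56, Nkx6-1 -0.73, Slc30a8 -1.28, Syt13 -0.05, Atp2a2 -1.71, Gnas -2.31, Foxo1 -1.56, Pdia3 -0.59, Atf6 -2.37, Podxl -1.66, Col4a2 -2.69, Eng -0.21, the 1-block peak of Slc8a1 -0.06 and the wide peak of Casr -2.62. Under DESeq2's own factors they were -1.98, -1.56, -0.74, -1.28, -0.05, -1.71, -2.32, -1.56, -0.59, -2.37, -1.66, -2.69, -0.21, -0.06 and -2.62 in that order.

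The authors' 5′UTR class was 0.35 above the rest on the log2 scale over all peaks, 0.22 with at least 30 input reads and -1.13 with the class taken at the spliced midpoint. The 3′UTR class was at 0.00, and at -0.06, -0.17 and -0.15 with 30 reads, with peaks of 1 block and at the spliced midpoint. The authors' other introns were at -0.57, and at -0.40 in peaks listed as lower in knockouts and -0.03 in peaks of 1 block. Their intergenic class was at -0.89 and -0.30 in peaks of 1 block, and their last exons at 0.35 and 0.30. Exons over 1000 nt were 0.49 above those over 400 and up to 1000 nt, 0.55 with 30 reads or with the mean input as denominator, 0.46 in peaks listed as lower, 0.44 in peaks of 1 block and 0.19 in the middle tertile of peak length. For junctions, over 200 nt against nearer gave 0.87, and 0.39 in the middle tertile. Spearman's rho with abundance was -0.50, and -0.548 with the mean input, -0.584 with the same pool's input and -0.179 with RPM of the whole peak. GGAC against none gave 0.05, -0.02 with 30 reads and -0.05 in 200 nt. DRACH against none gave 0.08, and 1.06 in 200 nt. Over all their peaks, the long noncoding RNAs had a median of 5.28, against 11.1. The cause of these moves was not tested.

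Without 1 pool, the all-peak median was 6.66 to 8.68, rho -0.512 to -0.484, and the list medians 4.04 to 5.94 for transcription factors and 10.5 to 14.0 for receptors. The calls of Abhd15, Acbd3, mt-Nd6 and Atf6 change as given above, and Plcxd3 (log2 ratio -0.53, adjusted p = 0.04) passed without IP pool 1. Input depth limits the weakest inputs, and the 3 pools limit every contrast between groups of peaks.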

Other observations

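Control enrichment differed by the direction in which the authors listed a peak. Among peaks of 1 block, the 48 listed as higher in knockouts had a median enrichment in controls of 2.58 ± 0.394 (SD, n = 3 pools), and the 706 listed as lower had 8.05 ± 2.35. The listing used the same control libraries, so this describes the list and is no test.

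Of 427 control input counts of 30 or less, 371 (86.9%) were odd. Halving all counts left the numbers of peaks called at 1191 and 5. How the counts were made is not given in the sources used here.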
